A study of Mus musculus with 16 samples.

Results

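The genes described here are 10 genes of the inflammasome and of the interleukin-1 (IL-1) family, chosen by name from the 55604 genes listed in each count table: *Nlrp3*, *Pycard*, *Casp1*, *Casp4*, *Gsdmd*, *Il1a*, *Il1b*, *Il18*, *Il1rn* and *Il1r2*. All 10 were found, and all 10 passed the filter of at least 10 counts in at least 4 libraries. Their RNA was compared between Tim-4+ and Tim-4- tumor-associated macrophages (TAMs) from the peritoneal cavity of C57BL/6 mice that carried ID8 tumors, which grow from a mouse ovarian epithelial cancer line placed in the peritoneum. The mice were female and 6 to 8 weeks old by the study's methods, and TAMs were taken 6 to 7 weeks after inoculation. There were 4 libraries of each subset (n = 4), which form 4 pairs numbered 793, 784, 783 and 779, and each library was sequenced in 2 lanes that were summed here. Tim-4+ cells were captured with beads against Tim-4, a receptor for phosphatidylserine that marks resident macrophages, and Tim-4- cells were then enriched from the remainder with beads against F4/80. The labels list Tim-4 under genotype, but it denotes the captured subset and not an altered allele. All mice bore tumors, so no value below describes a tumor-free peritoneum, and whether a pair number stands for 1 mouse or for pooled mice is not stated.

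An inflammasome is a protein platform that a macrophage builds when a sensor such as NLRP3 detects damage or infection. The sensor recruits the adaptor ASC, encoded by *Pycard*, which gathers and activates caspase-1, and caspase-1 cuts the precursors of IL-1 beta and IL-18 and also gasdermin D, whose fragment forms pores in the membrane. IL-1 alpha signals through the same receptor as IL-1 beta but does not need caspase-1 to be active, the receptor antagonist encoded by *Il1rn* blocks that receptor, and the decoy receptor encoded by *Il1r2* binds the ligands without signaling. These steps take place on proteins, which RNA counts do not measure.

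The counts on genes totaled 53527928 to 57768202 per library in the Tim-4+ subset and 55618306 to 69594245 in the Tim-4- subset. Levels are given as CPM, each count set relative to the scaled library total. The lowest level that could be seen was taken as 3 counts, which equaled 0.0431 to 0.0560 CPM when set relative to the unscaled totals. This floor covers counting error only. *Timd4*, which encodes Tim-4, stood at 1159.9, 1743, 524 and 1166 CPM in the Tim-4+ libraries of pairs 793, 784, 783 and 779 and at 84.9, 11.1, 22.3 and 1.96 CPM in the Tim-4- libraries (log2 fold change 6.09, adjusted p = 0.0167, by the quasi-likelihood test of edgeR, adjusted by Benjamini-Hochberg over 16861 genes). The change was 5.47 with an adjusted p of 0.0843 without pair 784. Among Tim-4- libraries, that of pair 793 held the most *Timd4*, and it also held the most *Nlrp3*, *Pycard*, *Il1a*, *Il1b* and *Il1r2*. Of the 8 macrophage markers, all detected in every library, 5 were higher in Tim-4+ TAMs (*Adgre1*, which encodes F4/80, *Cd68*, *Itgam*, *Lyz2* and *Mertk*, log2 fold changes 0.57 to 1.34), *Mrc1* was lower (-1.09), and *Csf1r* and *Ptprc* did not pass the test (0.25 and -0.00). The summed mesothelial or tumor markers were 105 to 378 CPM in the Tim-4+ subset and 429 to 2116 CPM in the Tim-4- subset, with 7 of 7 lower in Tim-4+ TAMs. The neutrophil markers *Ly6g*, *S100a9* and *Cxcr2* stayed at or under 1.01 CPM in every library, and 6 of 10 neutrophil markers were under 1 CPM throughout. The summed neutrophil list, 264 to 372 CPM in the Tim-4+ and 90.6 to 204 CPM in the Tim-4- libraries, consisted almost wholly of *Csf3r*, which was higher in Tim-4+ TAMs (log2 fold change 1.17). *Mmp8*, under 1 CPM in every library, was also called higher (2.73, adjusted p = 0.0477), and *S100a8*, at 1.39 to 2.89 CPM over all libraries, was above its partner in 4 of 4 pairs without passing the test (0.36). Markers of resident peritoneal macrophages were higher in Tim-4+ TAMs for 4 of 4 genes, markers of monocyte-derived macrophages were lower for 4 of 5, and the summed lymphocyte markers were 16.4 to 43.98 CPM against 32.8 to 67.9 CPM. In bulk samples, fewer cells of a type and less RNA per cell cannot be told apart, and the part of these differences in the results below was not tested.

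In the paired comparison 3 of the 10 genes rose in Tim-4+ TAMs (*Il1a*, *Nlrp3* and *Pycard*) and 0 fell, at an adjusted p under 0.05. Of all 16861 genes tested, 8.97% rose and 8.43% fell by the same rule. At an unadjusted p under 0.05 the counts were 5 higher and 0 lower, beside 16.8% and 16.9% of all genes. With DESeq2 and the pair block 4 were higher, *Casp4* being added, and 0 were lower, beside 13.1% and 13.8% of all genes. Only *Il1a* among the 10 also changed by at least 2-fold (3.8% of all genes rose and 5.79% fell by that rule), and only *Il1a* had subsets that did not overlap (6.84% of all genes, higher, and 5.92%, lower). Direction was shared more widely, as 7 of the 10 genes had the higher level on the Tim-4+ side of every pair and 0 had the lower (22.4% and 20.2% of all genes). Over the 10 genes the log2 fold change had a median of 0.39, against -0.00 over all genes tested. Calls depended on the pairing and on single pairs, among these genes and among all genes. Without the pair block 0 of the 10 genes were higher (0.872% of all genes), without pair 784 0 (0.534%), without pair 779 1 (2.75%), without pair 793 2 (4.67%) and without pair 783 3 (9.59%). Scaling by total counts in place of the trimmed mean of M-values (TMM) moved the median of all genes to -0.36, under which *Casp1* and *Il18* turned negative, *Pycard* no longer passed and *Gsdmd* was called lower.

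**Figure D1:**
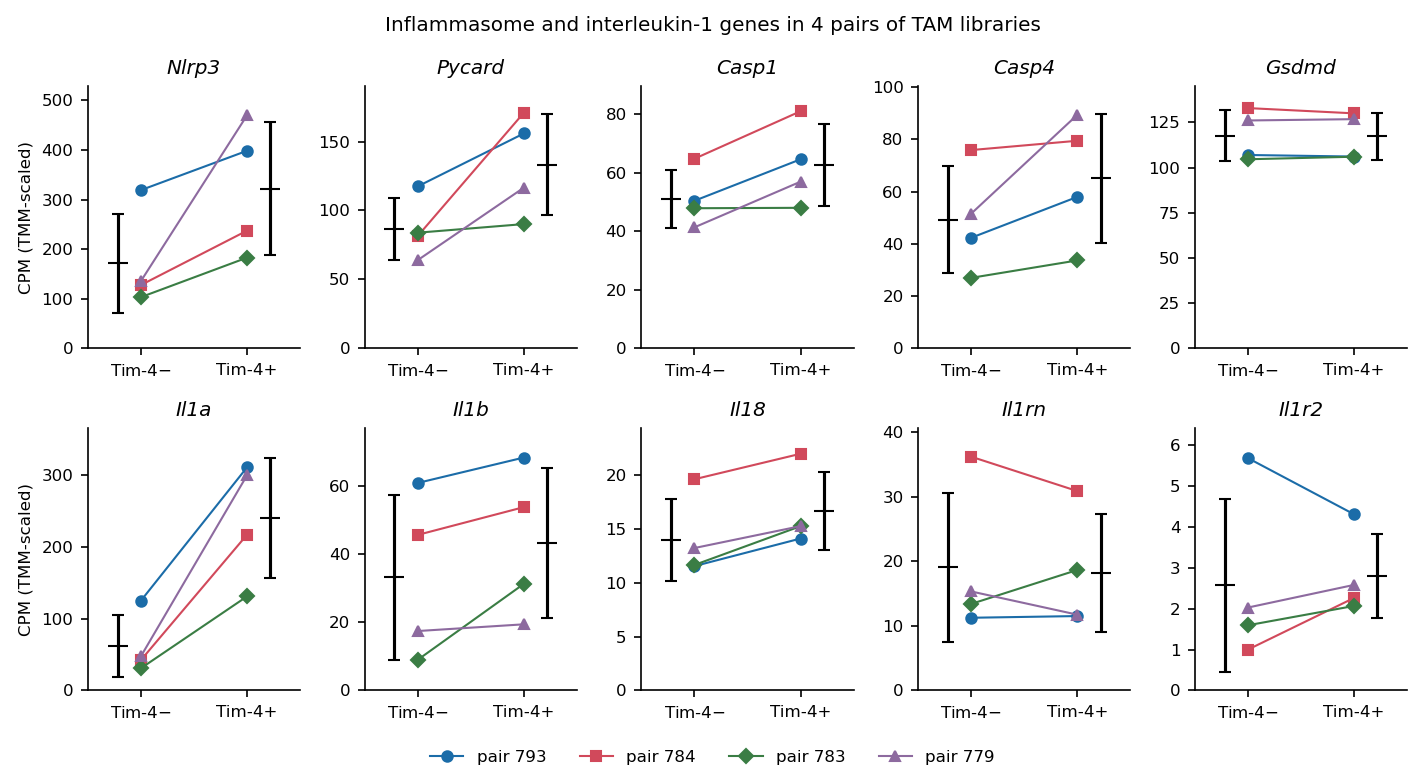
Level of each of the 10 genes in CPM (TMM-scaled, linear axes from 0) in the Tim-4- and Tim-4+ library of each pair, joined by a line, with the mean and SD of 4 libraries as black bars. *Il1a* is the one gene whose subsets do not overlap (31.0 to 125 CPM against 131 to 311 CPM), and the *Gsdmd* lines are nearly flat.

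*Nlrp3*, the sensor that gives the best known inflammasome its name, was higher in Tim-4+ TAMs. Its levels were 398, 237, 183 and 469.6 CPM in the Tim-4+ libraries of pairs 793, 784, 783 and 779 and 319, 128, 103 and 136 CPM in the Tim-4- libraries. All 4 pairs rose, by 0.32 to 1.79 on the log2 scale, while the subsets overlapped because the Tim-4- library of pair 793 lay above both lower Tim-4+ libraries. The fitted log2 fold change was 0.95 (SE 0.23, 95% interval 0.42 to 1.49, edgeR adjusted p = 0.0318), with means of 322 ± 134 and 172 ± 99.3 CPM (SD, n = 4). The call was lost without pair 784 (0.97, adjusted p = 0.129), without pair 779 (0.68, adjusted p = 0.0574) and without the pair block (0.91, adjusted p = 0.247). Pair 779 gave the widest gap, as its Tim-4+ library held the most *Nlrp3* of all 8 libraries. Its Tim-4- library held the lowest *Timd4* of that subset, but more *Nlrp3* than the Tim-4- libraries of pairs 784 and 783. A link between *Timd4* and the *Nlrp3* gap was not tested.

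*Pycard*, which encodes the adaptor ASC, was higher in Tim-4+ TAMs by a smaller step. It was measured at 156, 171, 90.1 and 117 CPM in the Tim-4+ libraries in the same pair order and at 117, 81.5, 83.9 and 64.0 CPM in the Tim-4- libraries. Pairs 784 and 779 differed by 1.07 and 0.86 on the log2 scale, whereas pair 783 differed by 0.10, and the subsets overlapped. The log2 fold change was 0.61 (SE 0.17, 95% interval 0.22 to 1.0, edgeR adjusted p = 0.0446), close to the threshold. It was no longer called without pair 793, 784 or 779 (0.69, 0.46 and 0.53, adjusted p = 0.0909, 0.167 and 0.161), without the pair block (adjusted p = 0.187) or with total-count scaling (0.25, adjusted p = 0.176).

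The stretches just before the annotated starts of *Nlrp3* and *Pycard* are shown because this sensor and this adaptor were each called higher. A joint change of the 2 genes was not tested. Both are the 250 bases upstream of the start in RefSeq's GRCm38.p6 annotation, read on the gene's strand, at chr11:59541319-59541568 (plus strand) and chr7:127993868-127994117 (minus strand). Capitals mark letters of the searched motifs.
Nlrp3: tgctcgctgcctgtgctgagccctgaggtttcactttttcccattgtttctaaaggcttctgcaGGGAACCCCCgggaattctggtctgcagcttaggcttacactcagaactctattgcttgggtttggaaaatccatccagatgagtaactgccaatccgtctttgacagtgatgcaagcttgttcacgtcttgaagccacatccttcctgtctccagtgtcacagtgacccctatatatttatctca
Pycard: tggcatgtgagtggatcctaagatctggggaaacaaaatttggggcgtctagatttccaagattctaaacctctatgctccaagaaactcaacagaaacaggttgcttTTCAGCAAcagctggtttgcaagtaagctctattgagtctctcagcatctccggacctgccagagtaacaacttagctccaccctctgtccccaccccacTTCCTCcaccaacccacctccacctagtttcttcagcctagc
The motifs searched on both strands, in windows that reach 50 bases past the start, were GGG and CC with any 5 bases between them for NF-kB, TTGC and AA with any 2 bases between them for C/EBP, TGANTCA for AP-1, GAGGAA for PU.1, and GAAA and GAAA with any 2 bases between them for IRF. At least 1 match was held by 50.8%, 10.8%, 7.8%, 28.3% and 3.4% of 32851 RefSeq promoter windows of that length. The *Nlrp3* stretch held the NF-kB letters at -186 to -177, readable on both strands, and the *Pycard* stretch held C/EBP letters at -142 to -135 and PU.1 letters at -42 to -37, both on the opposite strand. A second *Nlrp3* start in RefSeq had PU.1 letters at 3 places and NF-kB letters at -8 to 1. Of the 13 windows that 9 of the 10 genes have (*Gsdmd* has no entry), 8 held NF-kB letters, 4 PU.1, 2 AP-1, 1 C/EBP and 0 IRF. The windows with NF-kB letters belonged only to *Il1rn*, *Casp4*, *Nlrp3* and *Casp1*. Some windows of *Il1rn* and of *Casp4* overlap, so the same letters were counted more than once. A match describes letters, not binding.

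Both caspases leaned the same way without passing the test. *Casp1*, the caspase that inflammasomes activate, was at 64.6, 81.0, 48.0 and 57.0 CPM in the Tim-4+ subset and at 50.5, 64.8, 47.9 and 41.4 CPM in the Tim-4- subset, and its log2 fold change was 0.29 (SE 0.11, 95% interval 0.03 to 0.54, edgeR adjusted p = 0.113). It was above its partner in 4 of 4 pairs, though in pair 783 the levels were nearly equal, and with total-count scaling its fitted change was -0.07. *Casp4*, the murine caspase-11 that binds bacterial lipopolysaccharide inside the cell, was at 58.0, 79.5, 33.7 and 89.4 CPM in the Tim-4+ subset and at 42.4, 75.9, 27.0 and 51.6 CPM in the Tim-4- subset. Here the order of the pairs was much alike in both subsets, with pair 783 lowest and pair 784 or 779 highest, so the spread among pairs exceeded the difference within them. The *Casp4* log2 fold change was 0.41 (SE 0.13, edgeR adjusted p = 0.0698), and 0.05 with total-count scaling.

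*Gsdmd*, the pore-forming end point of the pathway, did not differ detectably. Its levels were 106, 129.9, 106 and 127 CPM in the Tim-4+ subset and 107, 133, 105 and 126 CPM in the Tim-4- subset. Pairs 784 and 779 were higher than pairs 793 and 783 in both subsets, and within a pair the difference was between -0.03 and 0.02 on the log2 scale. The fitted log2 fold change was -0.00 (SE 0.09, edgeR adjusted p = 0.982), with a 95% interval of -0.22 to 0.21. With total-count scaling it was -0.36 with an adjusted p of 0.0282, the same size as the shift of the median of all genes under that scaling (-0.36).

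**Figure D2:**
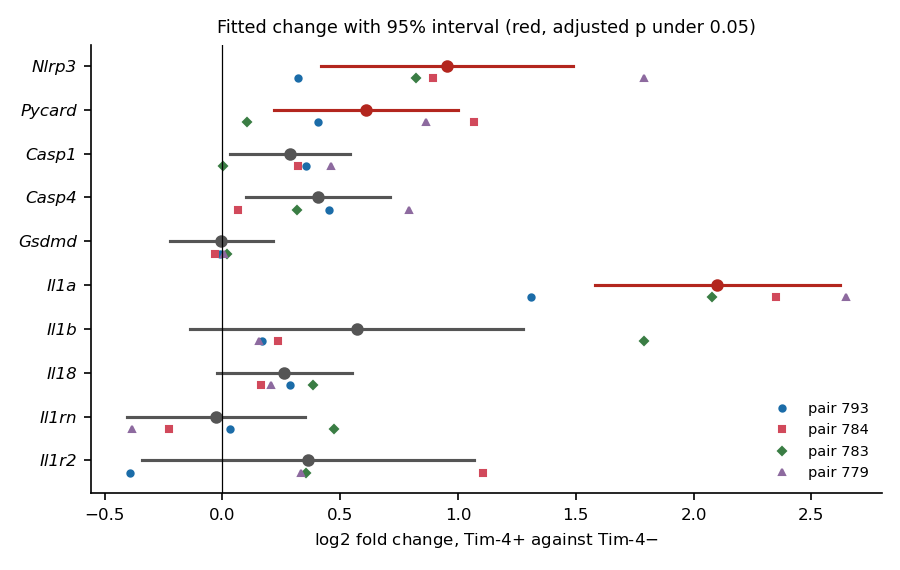
Log2 fold change of Tim-4+ against Tim-4- TAMs for each of the 10 genes from the edgeR fit (circle) with its 95% interval (line), red where the adjusted p was under 0.05, and below it the log2 ratio of each pair. *Il1a*, *Nlrp3* and *Pycard* are red, and the *Il1b* point rests on pair 783. With total-count scaling *Casp1* and *Il18* turn negative.

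*Il1a*, which encodes IL-1 alpha, showed the largest difference of the 10 genes. It reached 311, 217, 131 and 300.2 CPM in the Tim-4+ libraries of pairs 793, 784, 783 and 779, against 125, 42.5, 31.0 and 47.8 CPM in the Tim-4- libraries. Every Tim-4+ library lay above every Tim-4- library, although the lowest Tim-4+ library (pair 783) and the highest Tim-4- library (pair 793) were close. The log2 fold change was 2.10 (SE 0.22, 95% interval 1.58 to 2.62, edgeR adjusted p = 0.00533), a 4.29-fold difference, and pairs differed by 1.31 to 2.65. By p-value *Il1a* ranked 87 of 16861 genes. The adjusted p was 0.0510 without pair 784 (2.01) and 0.0590 without the pair block (1.96), and 1.74 was the log2 fold change with total-count scaling. An antisense gene, *Gm14023*, overlaps *Il1a* on the other strand and was at 11.9 to 33.1 CPM in the Tim-4+ subset and 3.25 to 14.8 CPM in the Tim-4- subset (log2 fold change 1.98, edgeR adjusted p = 0.0115). The sources do not say if strand was used in counting, so reads of *Il1a* and *Gm14023* may not be separated.

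*Il1b*, which encodes IL-1 beta and lies beside *Il1a*, did not pass the test. It was measured at 68.4, 53.9, 31.3 and 19.4 CPM in the Tim-4+ subset and at 61.0, 45.7, 8.99 and 17.4 CPM in the Tim-4- subset. The spread among pairs was wide, 3.52-fold in Tim-4+ and 6.78-fold in the Tim-4- subset, and the level of a pair in one subset mostly went with its level in the other. Tim-4+ TAMs were higher in 4 of 4 pairs, but pair 783 differed by 1.79 on the log2 scale and the other pairs by 0.15 to 0.24. The fitted change was 0.57 (SE 0.29, 95% interval -0.14 to 1.28, edgeR adjusted p = 0.228) and 0.18 (adjusted p = 0.403) without pair 783. Neutrophils are also rich in *Il1b*, and of their 10 markers 6 were under 1 CPM in every library, while 2 of the 4 that could be tested, *Csf3r* and *Mmp8*, were higher in Tim-4+ TAMs. Their part in the *Il1b* values was not tested.

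The neighbors *Il1a* (chr2:129299610-129309972, minus strand) and *Il1b* (chr2:129364570-129371139, minus strand) stand 54.6 kb apart in GRCm38, and their upstream stretches are shown because one of the pair rose and the other did not pass the test. These are 250 bases each, on the gene's strand, at chr2:129309973-129310222 and chr2:129371140-129371389, again with searched motifs in capitals.
Il1a: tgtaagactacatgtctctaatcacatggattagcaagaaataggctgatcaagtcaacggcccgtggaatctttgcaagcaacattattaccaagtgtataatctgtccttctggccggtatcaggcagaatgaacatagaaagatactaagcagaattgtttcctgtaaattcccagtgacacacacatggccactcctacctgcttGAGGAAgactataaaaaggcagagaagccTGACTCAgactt
Il1b: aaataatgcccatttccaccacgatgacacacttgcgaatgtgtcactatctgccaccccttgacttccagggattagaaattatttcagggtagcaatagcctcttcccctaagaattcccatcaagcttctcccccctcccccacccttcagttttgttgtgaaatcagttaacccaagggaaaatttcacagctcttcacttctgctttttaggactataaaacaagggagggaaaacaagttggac
The *Il1a* stretch held PU.1 letters at -41 to -36 and AP-1 letters at -12 to -6, counted from the start site. No searched motif was found in the *Il1b* window, which says only that these letters are not in it.

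The ratio of *Il1a* to *Il1b* counts within a library, which does not depend on scaling, was 4.55, 4.03, 4.19 and 15.5 in the Tim-4+ subset and 2.06, 0.930, 3.45 and 2.74 in the Tim-4- subset. It was above its partner in all 4 pairs, by 0.28 to 2.50 on the log2 scale, and the Tim-4+ and Tim-4- values did not overlap. This ratio was chosen after its values were seen and was not tested. Because it is a ratio of counts, it is not corrected for gene length.

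*Il18*, whose product IL-18 is released like IL-1 beta and drives interferon-gamma production, did not pass the test. Its levels were 14.1, 21.96, 15.2 and 15.2 CPM in the Tim-4+ subset and 11.5, 19.6, 11.6 and 13.2 CPM in the Tim-4- subset. All 4 pairs were higher in the Tim-4+ subset and the pairs kept one order in both subsets, with pair 784 highest and pair 793 lowest. The log2 fold change was 0.26 (SE 0.12, 95% interval -0.02 to 0.55, edgeR adjusted p = 0.182), and -0.10 with total-count scaling. *Bco2* overlaps *Il18* on the opposite strand, at 7.12 to 11.2 CPM in Tim-4+ and 4.08 to 7.67 CPM in the Tim-4- subset, so part of the *Il18* reads may not be its own.

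Neither inhibitor of IL-1 passed the test. *Il1rn*, the receptor antagonist, was at 11.5, 30.9, 18.7 and 11.7 CPM in the Tim-4+ subset and 11.3, 36.2, 13.4 and 15.3 CPM in the Tim-4- subset, with pair 784 highest in both subsets and 2 of 4 pairs higher in Tim-4+ TAMs. The fitted log2 fold change was -0.03 (SE 0.16, 95% interval -0.40 to 0.35, edgeR adjusted p = 0.933), and its sign turned without pair 784 (0.04) or 779 (0.09). *Il1r2*, the decoy receptor, was the least abundant of the 10 genes, at 4.31, 2.26, 2.06 and 2.58 CPM in the Tim-4+ subset and 5.68, 0.998, 1.59 and 2.03 CPM in the Tim-4- subset. It was highest in pair 793 in both subsets. Its log2 fold change was 0.36 (SE 0.30, 95% interval -0.34 to 1.07, edgeR adjusted p = 0.449).

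Inhibitor and target were also compared as a ratio within each library. The log2 ratio of *Il1rn* to *Il1b* averaged -1.21 ± 0.91 in the Tim-4+ subset and -0.59 ± 1.29 in the Tim-4- subset (SD, n = 4), so the antagonist was lower relative to *Il1b* in Tim-4+ TAMs in 4 of 4 pairs, by 0.13 to 1.32. The mean difference was -0.61 ± 0.50 (SD, n = 4 pairs), with a two-sided p of 0.12 by an exact sign-flip permutation test, the smallest that 4 pairs allow. The log2 ratio of *Il1r2* to *Il1r1*, the decoy to the signaling receptor, averaged -0.31 ± 0.91 and -2.28 ± 1.76, higher in Tim-4+ TAMs in 4 of 4 pairs by 1.97 ± 1.68 on average (exact sign-flip permutation p = 0.12, two-sided). In pair 793 that difference was 0.02 and in pair 784 it was 3.59. The fitted log2 fold changes were 0.36 for *Il1r2* and -1.59 for *Il1r1*, and neither passed the edgeR test. Among Tim-4- libraries, *Il1r1* and the summed mesothelial or tumor markers were both highest in pair 779. The part of those markers' cells in this ratio was not tested. Both ratios give an adjusted p of 0.12 over the 2 tests, so neither passes the threshold, and this design could not have passed it.

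**Figure D3:**
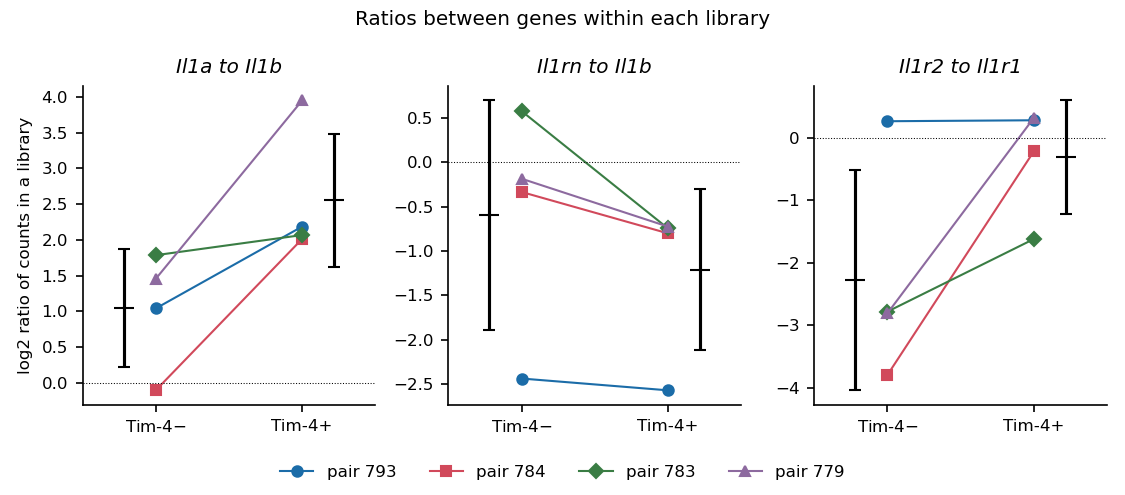
Log2 ratio of the counts of one gene to another within each library (vertical axis) for Tim-4- and Tim-4+ TAMs, with pairs joined by lines, the mean and SD of 4 libraries as black bars and a dotted line at equal counts. In each panel all 4 pairs move one way: up for *Il1a* to *Il1b* (not tested) and *Il1r2* to *Il1r1*, and down for *Il1rn* to *Il1b*.

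Levels can be compared between genes only per length, as RPKM, which is CPM divided by the exon length in kilobases (computed here). That length merges every annotated exon of a gene, and for *Pycard* it was 3800 bases of a gene at chr7:127989708-127993867. It can exceed the length of the transcript that was read, which lowers the RPKM. The order below therefore depends on the annotation, and other lengths were not tried. In Tim-4+ TAMs the order of the means was *Il1a* (122 ± 42.5 RPKM, SD, n = 4), *Nlrp3* (79.4 ± 33.1), *Gsdmd* (49.3 ± 5.45), *Casp1* (41.9 ± 9.35), *Pycard* (35.1 ± 9.68), *Il1b* (22.7 ± 11.6), *Casp4* (17.6 ± 6.67), *Il18* (16.1 ± 3.48), *Il1rn* (3.29 ± 1.64) and *Il1r2* (1.47 ± 0.537). The ranges of neighbors in this order overlapped, except between *Il18* and *Il1rn*. In Tim-4- TAMs *Gsdmd* came first (49.5 ± 5.89 RPKM), followed by *Nlrp3* (42.3 ± 24.5), *Casp1* (34.2 ± 6.61), *Il1a* (31.2 ± 21.8), *Pycard* (22.8 ± 5.88), *Il1b* (17.4 ± 12.7), *Il18* (13.6 ± 3.70), *Casp4* (13.3 ± 5.52), *Il1rn* (3.44 ± 2.09) and *Il1r2* (1.35 ± 1.11). There the one gap between neighbors lay between *Casp4* and *Il1rn*. *Il1a* was thus first by mean in the Tim-4+ subset and came after *Gsdmd*, *Nlrp3* and *Casp1* in the Tim-4- subset, while the antagonist and the decoy receptor came last in both.

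The genes whose profile over the 8 libraries was nearest to *Nlrp3* were *Bhlhe40*, *Kctd6* and *Kdm6b*, with root mean square distances of 0.152, 0.179 and 0.187 on the centered log2 CPM scale, against a median of 0.792 over 10284 genes with at least 5 CPM. *Bhlhe40* encodes a transcription factor and *Kdm6b* a histone demethylase. *Bhlhe40* was at 706 to 1643 CPM in the Tim-4+ subset and 362 to 1084 CPM in the Tim-4- subset, and like *Nlrp3* it was highest in pair 793 among Tim-4- libraries. The nearest genes to *Il1b* were *Malt1*, *Smad3* and *Rap1gap2*, at distances of 0.545, 0.554 and 0.562 (median 1.003), larger than those of the genes nearest to *Nlrp3*. The distance is not scaled to a gene's own spread, which was wider for *Il1b*. Within the Tim-4+ and Tim-4- subsets *Il1b* spread 3.52-fold and 6.78-fold, against 2.57-fold and 3.09-fold for *Nlrp3*. *Nlrp3* and *Il1b* were 0.880 apart. These distances describe 8 libraries that share pairs and scaling, and no test was made.

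The other genes of the pathway were read from 6 lists with 59 genes, of which 57 could be matched and 48 passed the count filter. Of the 48, 9 were higher and 4 lower in Tim-4+ TAMs, with a median log2 fold change of 0.10. Over all genes tested 8.97% were higher and 8.43% lower at an adjusted p under 0.05. The counts of called genes for the single lists below are to be read against these shares. Without pair 784 the counts were 0 and 0 (0.534% and 0.393% of all genes), without pair 779 they were 3 and 1 (2.75% and 2.05%), without pair 793 they were 6 and 0 (4.67% and 3.07%), and without pair 783 they were 11 and 4 (9.59% and 11.8%). Without the pair block they were 0 and 1 (0.872% and 0.504%). Total-count scaling gave 7 higher and 14 lower, beside 4.68% and 29.1% of all genes. At an unadjusted edgeR p under 0.05, 14 of the 48 were higher and 7 lower, beside 16.8% and 16.9% of all genes. By that rule 7 sensors were higher and 1 lower. Downstream of the caspases 1 gene was higher and 1 lower, and among receptors and binding proteins 1 was higher and 4 lower.

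Among the other inflammasome sensors, 4 of 10 rose and 1 fell. The risers included *Naip1*, *Naip6* and *Naip5*, which encode receptors that detect bacterial proteins and act with NLRC4. *Naip1* stood at 75.4, 49.9, 40.2 and 84.9 CPM in the Tim-4+ subset and at 33.3, 10.4, 19.2 and 16.4 CPM in the Tim-4- subset, without overlap (log2 fold change 1.72, edgeR adjusted p = 0.0120). *Naip6* and *Naip5* changed by 1.04 and 0.66 (adjusted p = 0.0263 and 0.0480), while their partner *Nlrc4* did not pass the test (0.46, adjusted p = 0.0611). The *Naip5* call was lost under 8 of 12 alternatives, among them lane 2 only (adjusted p = 0.0523) and a filter of 50 counts (adjusted p = 0.0532). *Ifi204*, a DNA-binding interferon-inducible gene, changed by 0.47 (adjusted p = 0.0410), while *Nlrp1b* was lower, with a change of -0.73 (adjusted p = 0.0349). The *Naip*, *Nlrp1* and *Ifi204* genes have close relatives in the genome, and reads that map to several places were set aside, so their counts are uncertain.

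Of 12 regulators, 2 rose and 0 fell. *Serpinb1a*, an inhibitor of neutrophil-type serine proteases, was at 253, 159.7, 31.3 and 203 CPM in the Tim-4+ subset and 59.7, 15.7, 13.7 and 26.5 CPM in the Tim-4- subset (log2 fold change 2.40, edgeR adjusted p = 0.0116). *Tnfaip3*, a ubiquitin-editing enzyme that restrains NF-kB, ran from 441 to 2311 CPM and from 173 to 974 CPM (1.11, adjusted p = 0.0252). *Nek7*, the kinase that NLRP3 needs to assemble, did not pass the test (0.20, adjusted p = 0.296). Regulators at an unadjusted p under 0.05 numbered 2 higher and 1 lower, beside 16.8% and 16.9% of all genes.

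Downstream of the caspases, 1 of 6 genes rose and 1 fell. *Ninj1*, which ruptures the membrane of dying cells after the gasdermin step, was at 531, 592, 501 and 518 CPM in the Tim-4+ subset and at 412, 208, 296 and 246 CPM in the Tim-4- subset (log2 fold change 0.93, edgeR adjusted p = 0.0189). All Tim-4+ libraries lay above all Tim-4- libraries for *Ninj1*, unlike *Gsdmd*. *Casp12*, 8.6 kb from *Casp4* on chromosome 9 in the cluster that also holds *Casp1*, was lower in 4 of 4 pairs, at 1.07 to 3.54 CPM against 1.80 to 10.1 CPM (-1.29, adjusted p = 0.0354).

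Receptors and binding proteins of the family moved in both directions, with 1 of 8 higher and 2 lower. *Il18bp*, which encodes the soluble protein that neutralizes IL-18, was at 34.8, 57.5, 66.7 and 67.9 CPM in the Tim-4+ subset and 19.4, 21.1, 48.95 and 24.7 CPM in the Tim-4- subset (log2 fold change 1.05, edgeR adjusted p = 0.0135). *Il1rl2*, the IL-36 receptor, was at 0.360 to 1.41 CPM and 2.99 to 4.70 CPM (-2.26, adjusted p = 0.0150). *Il18r1*, a chain of the IL-18 receptor, was scarce, at 0 to 0.639 CPM and 0.120 to 2.51 CPM (-2.32, adjusted p = 0.0492). Its call was lost under 8 of the 11 alternatives that kept the gene, including DESeq2 size factors (adjusted p = 0.0508), lane 2 only (adjusted p = 0.0659) and each pair left out (0.0890 to 0.130). *Il1r1*, the signaling receptor for IL-1, was at 3.53, 2.62, 6.36 and 2.06 CPM in the Tim-4+ subset and 4.70, 14.0, 10.99 and 14.2 CPM in the Tim-4- subset, lower in 4 of 4 pairs without passing the test (-1.59, adjusted p = 0.0569). It was called under 4 of 12 alternatives, among them DESeq2 (adjusted p = 0.000730) and without pair 783 (-1.90, edgeR adjusted p = 0.00767). Other settings moved *Il1r1* further from a call. Its edgeR adjusted p was 0.198 without pair 784 (-1.30), 0.158 without pair 779 (-1.19) and 0.199 with genes of at least 1 count kept. The summed mesothelial or tumor markers of the Tim-4- libraries, 429, 1358, 841 and 2116 CPM in the same pair order, were lowest in the library with the least *Il1r1* and highest in the one with the most, and their part in the *Il1r1* result was not tested. Its partner chain *Il1rap* did not pass the test (0.13, adjusted p = 0.528).

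On chromosome 1 the receptor genes lie in a row, and *Il1r2*, 99.8 kb from *Il1r1*, had a fitted change of 0.36 where *Il1r1*, *Il1rl2*, *Il1rl1*, *Il18r1* and *Il18rap* had changes of -1.59, -2.26, -0.32, -2.32 and -0.96. Only *Il1rl2* and *Il18r1* of these passed the test. Of the 11 signal adaptors downstream of the receptor, 1 rose and 0 fell. At an unadjusted p under 0.05 they numbered 3 higher and 0 lower, beside 16.8% and 16.9% of all genes. *Irak3*, an inactive kinase that dampens the signal, was at 70.8, 293, 48.2 and 54.7 CPM in the Tim-4+ subset and 34.9, 131, 25.1 and 14.7 CPM in the Tim-4- subset (log2 fold change 1.25, edgeR adjusted p = 0.00779). Pair 784 was highest in both subsets. *Myd88*, the adaptor through which the IL-1 and IL-18 receptors signal, did not pass the test (0.10, adjusted p = 0.595). The other cytokines of the family were at or near 0, and *Il33*, at 0.0913 to 0.320 CPM and 0.204 to 1.99 CPM, was the 1 of 6 that could be tested (-1.26, adjusted p = 0.156).

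**Figure D4:**
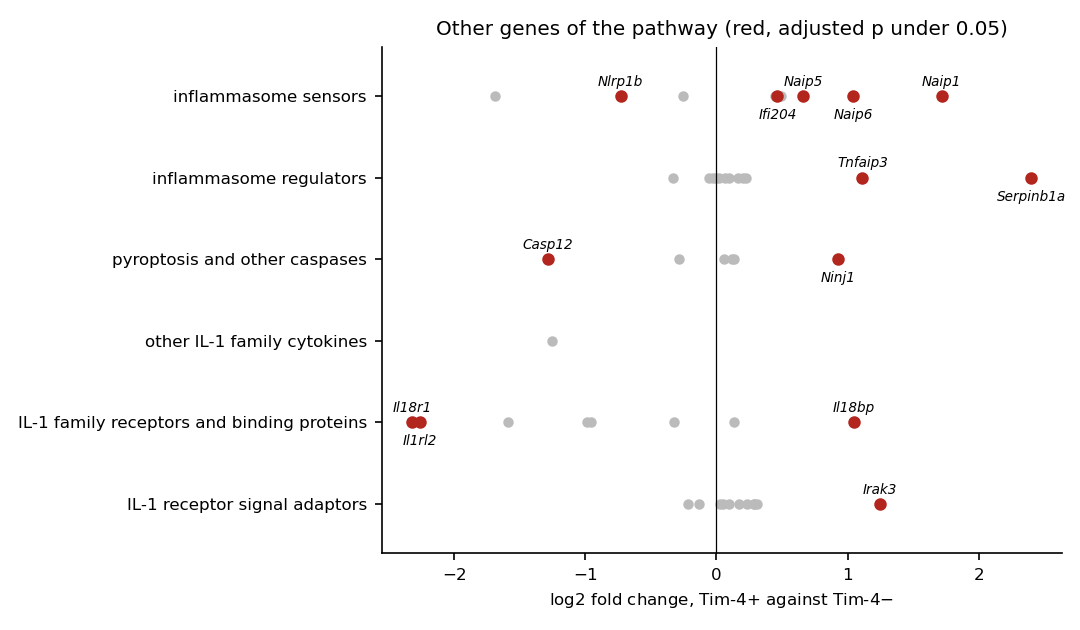
Log2 fold change of Tim-4+ against Tim-4- TAMs (horizontal axis, edgeR fit) for the 48 tested genes of the 6 other pathway lists, 1 row a list, red and named where the adjusted p was under 0.05. There are 9 red points right of 0 and 4 left of it, and most adaptors and regulators lie close to 0.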

How the data were processed

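Total RNA of TAMs was depleted of ribosomal RNA and sequenced as stranded, paired-end libraries. For every lane the authors deposited whole-number read counts of each gene, with no normalization. The submitters' processing notes name TopHat2 2.0.13, Cufflinks, Cuffdiff 2.2.1 and FastQC 0.11.3 with GRCm38, whereas the methods give a human reference. The read counter is not named, and multi-mapped reads were set aside (summary lines, 18.9% to 32.9% of a lane, were left out). In the Tim-4- library of pair 779 multi-mapped reads made up 24.5% of lane 1 but 9.11% of lane 2. Lanes of the other libraries with both listed were alike. The reason for this difference is not stated. In 15 of 16 lanes genes are listed by Ensembl identifier, of which 98.4% were in GENCODE M21. The lane listed by symbol (Tim-4-, pair 793) was joined by order, where 96.9% of symbols matched. Lanes were summed.

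Counts were tested with edgeR 4.0.16 (R 4.3.3, quasi-likelihood, robust, TMM, pair as a block, at least 10 counts in at least 4 libraries, Benjamini-Hochberg adjustment over 16861 genes), tested on simulated data. CPM are TMM-scaled, and RPKM divide them by the merged exon length. After subset means were removed, libraries with the same pair number correlated across genes at r = 0.471, 0.498, 0.408 and 0.277 (pairs 793, 784, 783 and 779), each the best match, so the label numbers were taken as pairs. With pair as a block, the edgeR p-values weigh the subset difference against the spread left after pair effects. Nothing says that libraries came from separate mice, so that spread describes these samples only. Alternatives used DESeq2 1.42.0, other scaling, filters, lanes, no block and leaving out each pair.

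The members and lists were chosen with earlier results of these data known. Named genes are the 10 members, called genes of the other lists (at most 15), *Il1r1*, *Il1rap*, *Nek7*, *Timd4*, and the 3 nearest genes to *Il1b* and *Nlrp3*. Markers and genes beside a result were named after their values were seen.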

Additional observations from a re-analysis of the deposited data

Results flagged for a closer look

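Of 52 groups of 4 libraries, 4 held a library far from the other three by Dixon's test at the 95% level, and chance alone gives about 1 in 20. *Nlrp3* was 319 CPM in the Tim-4- library of pair 793, against 103 to 136 CPM in the others, and without pair 793 its log2 fold change was 1.17 (edgeR adjusted p = 0.0360). *Il18* was 21.96 CPM in the Tim-4+ library of pair 784, against 14.1 to 15.2 CPM. *Il1rn* was 36.2 CPM in the Tim-4- library of pair 784, against 11.3 to 15.3 CPM. *Irak3* was 293 CPM in the Tim-4+ library of pair 784, against 48.2 to 70.8 CPM.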

How the results depend on the processing

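The count of 3 higher members was 2 to 4 with DESeq2, other scaling, other filters or other lanes, 0 without the replicate block, and 0 to 3 when a pair was left out. The count of 0 lower members was 1 with total counts (*Gsdmd*). The 9 higher genes of the other lists numbered 0 without the block and 0 to 11 with a pair left out, and the 4 lower genes numbered 14 with total counts, 1 without the block and 0 to 4 with a pair left out. *Timd4* changed by 6.07 with genes of at least 1 count kept (edgeR adjusted p = 0.148) and by 5.12 to 7.03 with a pair left out. Signs turned with total counts for *Casp1* (-0.072), *Il18* (-0.10), *Il1rap* (-0.23) and *Nek7* (-0.16), and with a pair left out for *Gsdmd* (-0.014 to 0.005, positive without 793 or 784) and *Il1rn* (-0.197 to 0.092, positive without 784 or 779). The cause of these changes was not tested. Over all genes tested, 91 were higher and 67 lower without pair 784, and 1608 and 1975 without pair 783. Without pairing, the exact permutation test over 8 libraries gave a p of 0.400 for *Il1rn* to *Il1b* and 0.0857 for *Il1r2* to *Il1r1*, not adjusted over the 2 ratios. Under DESeq2 the call of *Casp4* was gained (adjusted p = 0.0463). Depth limits *Il18r1*, *Il33* and the other scarce genes.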
